A study of Mus musculus with 8 samples.

Results

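Histone genes were followed in NIH 3T3 cells after their media were exchanged. NIH 3T3 is a line of mouse fibroblasts from embryos. The members were all probes on the array whose gene symbol named an H1, H2A, H2B, H3 or H4 histone of the gene clusters (such as H2ac, H2bc, H3c and H4c) or a histone variant (H1f, H2ax, H2az, H3f and macroH2A). They amounted to 59 genes with 66 probes, of 16593 genes with 25697 probes on the array. Of these genes, 51 were replication-dependent histone genes and 8 were replacement variants. The fibroblasts had been kept for 24 h in supernatant (2 arrays), in cardiomyocyte media (3 arrays) or in unused media (3 arrays). Unused media was fresh Claycomb media, the culture media of HL-1 cells, a contracting cell line from mouse atrium. Cardiomyocyte media was Claycomb media taken from HL-1 cultures, and supernatant was such media after slower spins that removed debris and ultracentrifugation for 2 h. No array held fibroblasts in ultracentrifuged unused media, so the spins and the cardiomyocytes cannot be told apart for the supernatant. The methods give the same numbers as n without saying whether these were separate experiments, and p-values therefore measure the spread between arrays, which may be technical.

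Histones are the proteins around which DNA is wound in the nucleus. Replication-dependent histone genes lie in clusters, are transcribed mainly while DNA is copied in S phase, and supply the new chromatin. Their mRNAs end in a stem-loop bound by the protein SLBP in place of a poly(A) tail, although polyadenylated forms are also made, above all in cells that leave the cell cycle. Replacement variants such as H3.3, H2A.Z and macroH2A come from genes outside these clusters with polyadenylated mRNAs and are made throughout the cell cycle. The amplification kit copies RNA from its poly(A) tail, so that the signals of the clustered genes stand for the RNA that could be copied in this way and not for all of their mRNA. Many clustered copies are nearly identical, and since probe sequences were not used here, copies that share a probe cannot be told apart.

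Of the 59 genes, 39 passed the filter on dim probes (detection p under 0.05 on at least 2 arrays) and were tested, 33 replication-dependent genes and 6 replacement variants. The other 20 had no probe that passed it. Among the tested members, 28 were detected on all arrays and 11 on some. The unused media arrays and replicate 1 of both treated groups were on chip 1, and the remaining treated arrays were on chip 2. Background intensity was 83.1 to 86 fluorescence units on chip 1 and 43.9 to 44.9 units on chip 2, and between 10545 and 11758 probes were detected per array. All 13 tested fibroblast markers were detected on every array. Against unused media 3 of the 13 rose with cardiomyocyte media (limma), where 4.03% of all tested genes rose. With supernatant 1 rose and 1 fell, where 0.732% of all tested genes rose and 1.45% fell. Of 18 cardiomyocyte markers, 7 were tested and none changed with limma in any comparison (at an unadjusted p under 0.05, 0 with supernatant and 1 with cardiomyocyte media against unused media, and 2 with supernatant against cardiomyocyte media). Myl4 and Tnnc1 were detected on all 8 arrays, Nkx2-5 on 7, Myh7 and Nppa on 3, Myh6 and Myl7 on 2, and Gata4 and Tbx5 on 1. The markers Myl2, Myl3, Tnni3, Actc1, Nppb, Ryr2 and Pln were detected on no array. The summed signal of the tested cardiomyocyte markers was 278 to 294 units with supernatant, 293 to 377 units with cardiomyocyte media and 309 to 498 units with unused media. In the following, a signal is the quantile normalized intensity above background in fluorescence units, a fold change is on the log2(signal + 16) scale, which understates the change of dim genes, and a gene was called changed at an adjusted p under 0.05 in limma with the Benjamini-Hochberg method over 8885 genes.

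H2A genes were lower with supernatant, H2B genes were higher with cardiomyocyte media, and of the replacement variants 1 was called against unused media, H2az1 with supernatant. The H2A genes that fell had brighter probes than the H2B genes that rose, so family and probe brightness cannot be told apart. With supernatant 11 of 39 histone genes fell and 0 rose compared to unused media, where 1.45% of all tested genes fell and 0.732% rose. At an unadjusted p under 0.05, 15 histone genes were lower and 1 was higher with supernatant, as were 6.38% and 5.49% of all genes. With cardiomyocyte media 9 histone genes rose and 1 fell compared to unused media, where 4.03% of all tested genes rose and 4.4% fell. Among these histone genes, H2ac8, H4c9 and H3c7 passed the filter only through the group where they were high. Both comparisons used the same 3 arrays of unused media. Groups without overlap were common with so few arrays. Over all tested genes, 13.2% lay wholly above and 15.5% wholly below unused media with cardiomyocyte media. With supernatant these shares were 14.9% and 16.4%.

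**Figure D1:**
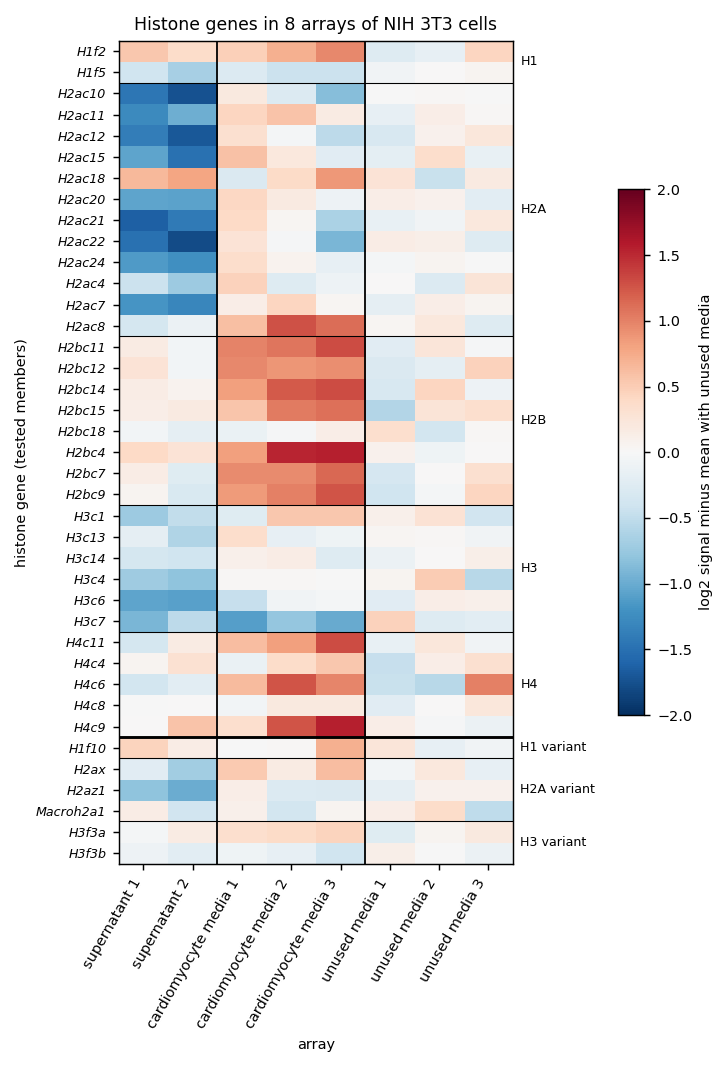
Signal of the 39 tested histone genes (rows, grouped by family, replacement variants under the thick line) in the 8 arrays (columns), as log2 difference from the mean of the unused media arrays. Blue fields in the supernatant columns mark H2A genes with a median of -1.21, and red fields in the cardiomyocyte media columns mark H2B genes with a median of 1.02.

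H2A is the partner of H2B in the dimers that flank H3 and H4 in the nucleosome. With supernatant 9 of 12 tested replication-dependent H2A genes were lower than with unused media, and the median log2 fold change of the family was -1.21, against -0.00262 for all genes tested. The 9 genes were detected on all arrays, and their log2 fold changes lay between -1.65 and -1.07, or 32.0% to 47.8% of the level with unused media (adjusted p between 0.00945 and 0.0354, limma). In bulk RNA, fewer cells in S phase and less histone RNA per cell cannot be told apart. H2ac24 had a signal of 8321 and 7898 with supernatant, 23440, 19380 and 16340 with cardiomyocyte media and 17800, 19080 and 18310 with unused media. Both supernatant arrays were thus far below the other 6, and the log2 fold change of H2ac24 against unused media was -1.18 ± 0.196 (SE, adjusted p = 0.0111, limma). H2ac20, which lies in the smaller cluster on chromosome 3, had 6904 and 6822 with supernatant, 19080, 16340 and 13480 with cardiomyocyte media and 15710, 15220 and 12450 with unused media. Again the supernatant arrays did not overlap with any other array (log2 fold change -1.07 ± 0.205, adjusted p = 0.0229, limma).

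H2ac22 had the lowest fold change of the family, with a signal of 1287 and 1056 with supernatant against 4078, 3991 and 3069 with unused media (log2 fold change -1.65 ± 0.311, adjusted p = 0.0213, limma). H2ac10 was close to it, with 2176 and 1776 with supernatant and 5920, 6052 and 5902 with unused media (-1.59 ± 0.268, adjusted p = 0.0119). The less bright gene H2ac21, a neighbour of H2ac20 on chromosome 3, had 72.4 and 86.9 with supernatant and 231.9, 247.3 and 303.6 with unused media (-1.53 ± 0.275, adjusted p = 0.0163). The 3 other tested H2A genes were dim and were not called with supernatant (adjusted p of 0.393 or more, limma). The 9 genes that fell all had a mean signal over 100, so the fall was called for brighter probes only, in both clusters. With cardiomyocyte media none of these 9 genes changed, and their log2 fold changes against unused media were between -0.31 and 0.39 with 95% confidence limits from -0.84 to 0.79. In the direct comparison of supernatant with cardiomyocyte media all 9 genes were lower with supernatant. It used the same 2 supernatant arrays by which the 9 genes were chosen, and is therefore no independent result.

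The remaining H2A genes had low signals. H2ac8 had 8.33 and 12.8 with supernatant, 31.4, 59.3 and 51.8 with cardiomyocyte media and 16.1, 20.1 and 9.99 with unused media. It was the only tested H2A gene of the clusters that rose with cardiomyocyte media (log2 fold change 1 ± 0.213, adjusted p = 0.0151, limma), and with chip as a block its adjusted p was 0.0842. H2ac8 was detected on 1 array of unused media, on all 3 of cardiomyocyte media and on none of supernatant. It thus passed the filter only through the group where it was high. H2ac18 had 63.9 and 71.8 with supernatant and 45.5, 21.2 and 41.4 with unused media, a log2 fold change of 0.72 ± 0.319 that did not pass the test (adjusted p = 0.41). H2ac4 had 17.2 and 11.0 with supernatant and 29.2, 21.1 and 37.8 with unused media, and also did not pass (-0.58 ± 0.251, adjusted p = 0.393).

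Over all H2A genes, the median difference from the unused media mean was -1.16 in supernatant replicate 1 on chip 1 and -1.26 in supernatant replicate 2 on chip 2. With chip as a block, where 1.65% of all genes fell and 0.675% rose, 8 of the 9 H2A calls were kept, without that of H2ac15 (adjusted p = 0.0561). The calls rested on both supernatant arrays. Without supernatant replicate 1 or replicate 2, 0 histone genes passed the limma test against unused media (16 and 12 were lower at an unadjusted p under 0.05), while 7, 3 and 5 histone genes fell without unused media replicate 1, 2 and 3. No called histone gene changed direction in any of these fits. When the arrays were given equal medians in place of quantile normalization, which moved the median of all genes to 0.26, 2 histone genes were called lower with supernatant, H2ac10 and H2ac22, and the H2A median relative to all genes was -1.17.

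H2B genes differed from H2A genes in when they were called, but also in the brightness of their probes. The H2A genes that fell with supernatant had brighter probes. All genes that rose with cardiomyocyte media had dim probes, among them H2ac8, H4c9 and H4c11 of other families. Of the H2B genes, 2 had a mean signal over 100, and 0 of these were called with supernatant. With cardiomyocyte media 6 of 8 tested H2B genes were higher than with unused media, with a median log2 fold change of 1.02 for the family against -0.01 for all genes tested. With supernatant 0 of 8 H2B genes changed (limma, 0 at an unadjusted p under 0.05), and the median was 0.08. H2bc4 had 104.2 and 93.3 with supernatant, 144.9, 245.9 and 251.5 with cardiomyocyte media and 80.0, 70.0 and 75.0 with unused media. All 3 cardiomyocyte media arrays were above the other 5, the one on chip 1 less so, and H2bc4 rose 2.47-fold (log2 fold change 1.30 ± 0.21, adjusted p = 0.00294, limma). A second probe of H2bc4 was detected on no array. H2bc11 had 66.0 and 54.5 with supernatant, 129.4, 137.5 and 164.3 with cardiomyocyte media and 46.7, 70.5 and 56.5 with unused media. The groups with cardiomyocyte media and unused media did not overlap, and H2bc11 rose 2.17-fold (1.12 ± 0.182, adjusted p = 0.00313).

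H2bc7 had 105 and 76.7 with supernatant, 194.4, 195.1 and 227.1 with cardiomyocyte media and 71.2, 94.8 and 120.5 with unused media, and rose with a log2 fold change of 1.01 ± 0.202 (adjusted p = 0.0106, limma). H2bc14 had 44.8, 64.8 and 69.2 with cardiomyocyte media against 11.5, 30.4 and 16.2 with unused media, where it was detected on 1 array (1.12 ± 0.22, adjusted p = 0.00972). H2bc9 had 101.2, 114.8 and 138.2 with cardiomyocyte media and 33.4, 47.6 and 71.5 with unused media (1.03 ± 0.226, adjusted p = 0.0173). The same was seen for H2bc12, given below with its neighbour. H2bc18, of the cluster on chromosome 3, was not called and its groups overlapped, with 28.4, 31.7 and 37.1 with cardiomyocyte media and 45.2, 21.7 and 33.5 with unused media (log2 fold change -0.01, 95% confidence interval -0.44 to 0.43). Its second probe did not pass the filter.

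The probes of the H2B genes were all dim, with no signal over 251.5, and the values therefore lie close to the background that differed between chips. Within chip 1, where background was alike, the H2B median of cardiomyocyte media replicate 1 was 0.84 above the unused media mean. With chip as a block, where 2.57% of all genes rose and 3.02% fell, the H2B median was 1.03, and H2bc4, H2bc7, H2bc11 and H2bc12 were called higher while H2bc9 (adjusted p = 0.0555) and H2bc14 (adjusted p = 0.0545) were not. Without background correction the H2B median relative to all genes was 0.54. In the fits that left out 1 array each, H2bc4, H2bc7 and H2bc11 were always called higher. The number of histone genes changed with cardiomyocyte media was 4 in each of the fits without unused media replicate 1, without cardiomyocyte media replicate 2 and without cardiomyocyte media replicate 3.

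**Figure D2:**
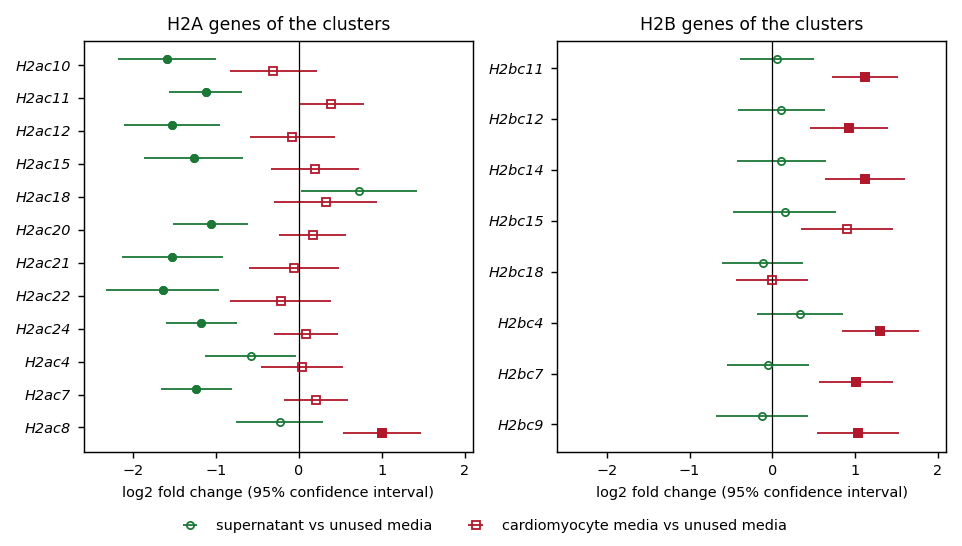
Log2 fold change (x axis) of each tested H2A and H2B gene of the clusters with supernatant (green circles) and with cardiomyocyte media (red squares), both against unused media, with 95% confidence intervals and filled symbols for an adjusted p under 0.05. In H2A 9 filled circles lie between -1.65 and -1.07, and in H2B 6 filled squares lie between 0.92 and 1.30.

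Several H2A and H2B genes stand head to head and share 1 short promoter. Among the members with a promoter in RefSeq (54 of 59 genes), 6 such divergent pairs were found in the large cluster on chromosome 13, and in 4 pairs both genes were tested. Their start sites were 249 bases apart for H2ac11 and H2bc11, 178 for H2ac12 and H2bc12, 174 for H2ac7 and H2bc7 and 164 for H2ac15 and H2bc15. The window of the H2B gene of each pair, which holds the whole stretch between both starts, is shown because both genes of a pair are read from it. It runs 5′ to 3′ along the H2B gene from 250 bases before to 50 bases after its start (GRCm38.p6), and capitals mark the octamer ATTTGCAT, the CCAAT box CCAAT and the TATA box TATAAA on either strand, where no marked match overlaps another.
H2bc11 (chr13:22042948-22043247, plus strand): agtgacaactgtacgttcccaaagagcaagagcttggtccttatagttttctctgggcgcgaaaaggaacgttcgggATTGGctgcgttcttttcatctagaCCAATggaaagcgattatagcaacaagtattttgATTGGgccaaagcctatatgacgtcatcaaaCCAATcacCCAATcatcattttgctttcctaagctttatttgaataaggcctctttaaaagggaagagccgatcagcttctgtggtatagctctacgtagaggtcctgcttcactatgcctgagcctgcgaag
H2bc12 (chr13:22035571-22035870, plus strand): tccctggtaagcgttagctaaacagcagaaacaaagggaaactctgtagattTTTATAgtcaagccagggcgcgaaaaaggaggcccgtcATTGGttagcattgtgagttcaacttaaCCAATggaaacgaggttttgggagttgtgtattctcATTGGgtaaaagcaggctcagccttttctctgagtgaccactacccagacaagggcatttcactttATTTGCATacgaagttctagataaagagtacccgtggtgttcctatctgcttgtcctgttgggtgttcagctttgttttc
H2bc7 (chr13:23574158-23574457, minus strand): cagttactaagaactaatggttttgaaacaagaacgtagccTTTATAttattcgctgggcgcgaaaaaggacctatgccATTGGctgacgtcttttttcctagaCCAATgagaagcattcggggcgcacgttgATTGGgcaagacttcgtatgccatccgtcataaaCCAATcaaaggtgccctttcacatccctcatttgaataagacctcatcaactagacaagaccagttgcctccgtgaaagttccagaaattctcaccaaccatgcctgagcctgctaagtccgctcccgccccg
H2bc15 (chr13:21753826-21754125, plus strand): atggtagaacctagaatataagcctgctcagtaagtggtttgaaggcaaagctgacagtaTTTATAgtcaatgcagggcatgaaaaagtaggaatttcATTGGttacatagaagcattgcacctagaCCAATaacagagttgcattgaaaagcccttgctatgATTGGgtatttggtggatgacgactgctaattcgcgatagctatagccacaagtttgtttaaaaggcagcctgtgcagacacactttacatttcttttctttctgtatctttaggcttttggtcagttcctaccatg
All 4 windows held several CCAAT boxes, and the octamer was found in that of H2bc12 alone. Over all replication-dependent windows the octamer, which is bound by the transcription factor Oct1, was found in 13 of 48 (27.1%), against 1.74% of all 32851 promoter windows of that length. It was found in 7 of 12 H2B windows and 6 of 14 H2A windows. The windows of divergent pairs overlap, so that some sites were counted in both families. H2ac12 shared its octamer with H2bc12, H2ac8 with H2bc8 and H2ac1 with H2bc1. CCAAT was found in 85.4% of replication-dependent windows and in 37.4% of all, and TATAAA in 60.4% and 13.6%. Of the H2B genes that rose with cardiomyocyte media 2 of 5 with a window held the octamer, and of the H2A genes that fell with supernatant 2 of 9 did. The site shared by H2ac12 and H2bc12 counts in both. Such a match of letters is a description and not a bound site.

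In all 4 pairs the H2A gene fell with supernatant and the H2B gene was not called there. In 3 of the 4 pairs the H2B gene rose with cardiomyocyte media, H2bc15 being the exception, and the H2A gene was called there in none. H2ac11 had 173.1 and 214.7 with supernatant, 600.6, 660.2 and 495.8 with cardiomyocyte media and 391.6, 483.3 and 448.5 with unused media. It fell with supernatant (log2 fold change -1.12 ± 0.201, adjusted p = 0.0156, limma), where its partner H2bc11 had a log2 fold change of 0.05 (95% confidence interval -0.39 to 0.50). With cardiomyocyte media H2ac11 had a log2 fold change of 0.39 ± 0.18 that did not pass (adjusted p = 0.202), against 1.12 for H2bc11.

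H2ac12 had 1770 and 1438 with supernatant, 5797, 4531 and 3254 with cardiomyocyte media and 3738, 4966 and 5452 with unused media (supernatant against unused media -1.54 ± 0.263, adjusted p = 0.0128). Its partner H2bc12 had 55.6 and 41.0 with supernatant, 99.3, 93.1 and 97.4 with cardiomyocyte media and 32.4, 36.7 and 66.1 with unused media (cardiomyocyte media against unused media 0.92 ± 0.214, adjusted p = 0.0226). Across this promoter the H2A gene was low in both supernatant arrays and the H2B gene was high in all 3 cardiomyocyte media arrays. H2ac7 had 1982 and 1820 with supernatant, 4966, 6103 and 4627 with cardiomyocyte media and 3978, 4933 and 4670 with unused media (supernatant against unused media -1.24 ± 0.196, adjusted p = 0.00945), next to H2bc7 with a log2 fold change of -0.05 with supernatant. H2ac15 had 2104 and 1529 with supernatant, 6530, 5074 and 3738 with cardiomyocyte media and 3807, 5542 and 3927 with unused media (supernatant against unused media -1.27 ± 0.271, adjusted p = 0.0354). H2bc15 had 24.2 and 25.5 with supernatant, 38.3, 59.9 and 62.7 with cardiomyocyte media and 8.45, 27.9 and 30.4 with unused media, and just missed the threshold with cardiomyocyte media (0.90 ± 0.253, adjusted p = 0.0516). The difference between the genes of a pair was not tested, since the H2B probes were dim and the H2A probes bright.

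**Figure D3:**
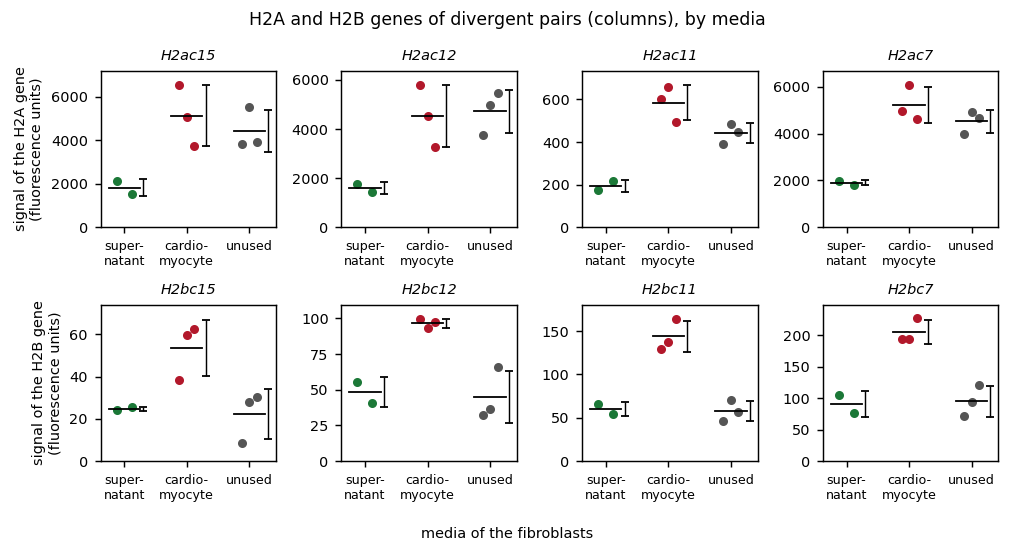
Signal (y axis, fluorescence units from 0) of the H2A gene (upper panels) and the H2B gene (lower panels) of 4 divergent pairs in each array with supernatant (green), cardiomyocyte media (red) and unused media (grey); lines are means and error bars SD over 2, 3 and 3 arrays. The upper panels show low supernatant points (H2ac11 at 173.1 and 214.7) and the lower panels high cardiomyocyte media points (H2bc11 between 129.4 and 164.3).

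H3 and H4 form the centre of the nucleosome core, to which H2A and H2B also belong. Of 6 tested H3 genes 1 fell with supernatant, H3c6, with 78.9 and 77.1 with supernatant, 126.3, 170.4 and 174.7 with cardiomyocyte media and 152.3, 198.7 and 194.3 with unused media (supernatant against unused media -1.06 ± 0.204, adjusted p = 0.0224, limma). All 6 H3 genes had a negative fold change with supernatant, with a median of -0.67, and 3 had an unadjusted p under 0.05. The brightest H3 gene, H3c13, had 1208 and 896.6 with supernatant and 1411, 1401 and 1313 with unused media (-0.40 ± 0.215, adjusted p = 0.51). With cardiomyocyte media H3c7 was the single member that fell. It had 4.01, 9.18 and 5.33 with cardiomyocyte media and 43.3, 19.9 and 21.3 with unused media, and was detected on 2 arrays, both of unused media, so that it could enter the test only through the group where it was high. A floor was set at the lowest signal of a detected probe on each array, or at the gene's own signal where that was higher. By this floor H3c7 was at least 1.26-fold lower with cardiomyocyte media. The limma test, made without the floor, gave a log2 fold change of -0.96 (adjusted p = 0.0227).

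Of 5 tested H4 genes 0 changed with supernatant against unused media (limma, 0 at an unadjusted p under 0.05), and 2 rose with cardiomyocyte media. H4c11 had 9.54 and 20.7 with supernatant, 34, 41.9 and 64.6 with cardiomyocyte media and 13.3, 22.0 and 15.2 with unused media (cardiomyocyte media against unused media 0.92 ± 0.223, adjusted p = 0.0296, limma). H4c9 had 18.4, 49.7 and 64.1 with cardiomyocyte media and 13.9, 11.0 and 9.33 with unused media, where it was detected on no array, so that it entered the test only through the treated groups. It was at least 1.57-fold higher by the same floor, and limma without the floor gave a log2 fold change of 1.05 (adjusted p = 0.0465). Both genes were lower on chip 1 than on chip 2 within cardiomyocyte media, and with chip as a block neither was called (adjusted p = 0.159 for H4c11 and 0.234 for H4c9). H4c6 had 49.9, 85.2 and 67.3 with cardiomyocyte media and 15.0, 12.7 and 69.0 with unused media and did not pass (0.96 ± 0.355, adjusted p = 0.126).

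Linker histone H1 binds the DNA between nucleosomes. H1f2 had 586.3 and 522 with supernatant, 561.2, 661.2 and 793.1 with cardiomyocyte media and 330.3, 353.9 and 544.3 with unused media. Its cardiomyocyte media arrays lay above all unused media arrays, as for 13.2% of all tested genes. The test was not passed (log2 fold change 0.71 ± 0.217, adjusted p = 0.0685, limma). Among the 28 members detected on all arrays, tested with the other genes of that kind, H1f2 was called higher. H1f5 had 15.2 and 9.96 with supernatant and 23.1, 25.5 and 27.0 with unused media (-0.53 ± 0.179, adjusted p = 0.25), and was detected on the 3 unused media arrays only.

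With cardiomyocyte media 0 of 6 tested replacement variants changed (limma, 1 at an unadjusted p under 0.05), and their median log2 fold change was 0.09. With supernatant 1 of 6 fell and the median was -0.14, against 10 of 33 and -0.38 for the replication-dependent genes, 9 of the 10 being H2A genes. A difference between the classes was not tested. The variant that fell was H2az1, which encodes H2A.Z, a variant found at promoters and needed in early development. It had 2536 and 2230 with supernatant, 4887, 3668 and 3641 with cardiomyocyte media and 3939, 4749 and 4724 with unused media. Both supernatant arrays were below all others, and H2az1 reached 53.6% of its level with unused media (log2 fold change -0.90 ± 0.203, adjusted p = 0.046, limma). With chip as a block its adjusted p was 0.0811, and it was called in 1 of 8 fits that left out an array.

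H2ax encodes the variant that is phosphorylated at DNA breaks, and its gene is known to give both a stem-loop and a polyadenylated mRNA. It had 404.6 and 288.4 with supernatant, 690.3, 539.6 and 738.7 with cardiomyocyte media and 461.6, 555.8 and 425.1 with unused media. H2ax was lower with supernatant than with cardiomyocyte media (-0.90 ± 0.222, adjusted p = 0.0424, limma), but neither treatment differed from unused media (-0.46 ± 0.222, adjusted p = 0.451 for supernatant and 0.43 ± 0.199, adjusted p = 0.203 for cardiomyocyte media). The call between the treatments was kept in 12 of 26 alternatives and in 2 of 8 fits that left out an array, without unused media replicate 3 and without cardiomyocyte media replicate 2. The 2 variants with the lowest fold changes with supernatant were thus both of the H2A family. Macroh2a1, also an H2A variant, had a log2 fold change of -0.12 against unused media (adjusted p = 0.909, limma).

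H3f3a and H3f3b encode the same protein, H3.3, which is put into chromatin outside S phase. H3f3a had 2729 and 3131 with supernatant, 3509, 3643 and 3807 with cardiomyocyte media and 2351, 2894 and 3195 with unused media. It was above unused media on all 3 cardiomyocyte media arrays, as were 13.2% of all tested genes, without passing the test (0.39 ± 0.172, adjusted p = 0.193, limma). H3f3b had 4933 and 4553 with supernatant, 4990, 4702 and 3991 with cardiomyocyte media and 5759, 5279 and 4870 with unused media, and its groups overlapped (supernatant against unused media -0.16, 95% confidence interval -0.57 to 0.25). Macroh2a1, which encodes the variant with a large additional domain, had 1078 and 735.8 with supernatant and 1068, 1254 and 676.8 with unused media (-0.12, 95% confidence interval -0.74 to 0.50). The linker variant H1f10 had 108 and 85.1 with supernatant, 74.7, 76.3 and 133.2 with cardiomyocyte media and 92.2, 64.9 and 70.4 with unused media, with no call in any comparison. Second probes of H1f10, H3f3a and the clustered gene H3c14 that passed the filter were not called either.

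**Figure D4:**
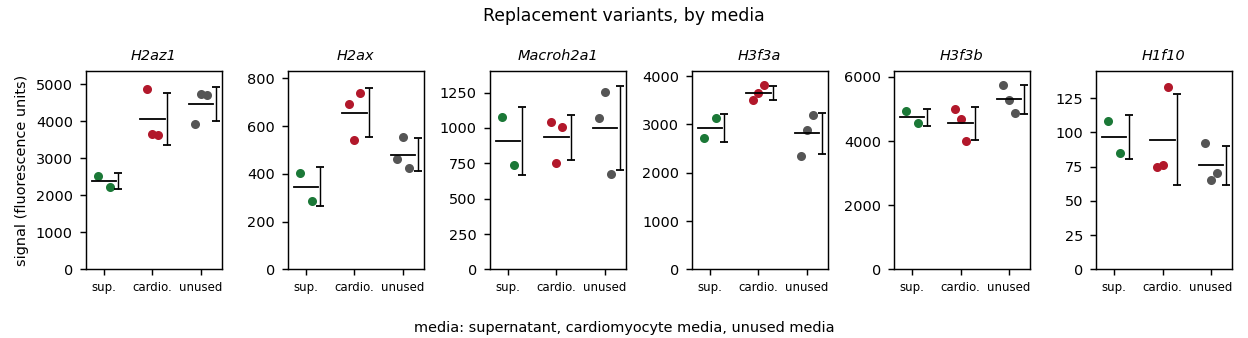
Signal (y axis, fluorescence units from 0) of the 6 tested replacement variants in each array with supernatant (green), cardiomyocyte media (red) and unused media (grey); lines are means and error bars SD over 2, 3 and 3 arrays. H2az1 has both supernatant points, 2536 and 2230, below all other arrays, and the H3f3b points overlap between groups.

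Supernatant and cardiomyocyte media were also compared directly, which does not involve the unused media arrays in the fold change. The treated arrays were those of the comparisons above, so that the results are not independent of them. With supernatant 18 of 39 histone genes were lower and 0 were higher than with cardiomyocyte media, where 3.13% of all tested genes were lower and 1.76% higher. At an unadjusted p under 0.05, 26 histone genes were lower and 0 higher, as were 7.68% and 7.5% of all genes. The 18 were 10 of 12 H2A genes, 5 of 8 H2B genes (H2bc4, H2bc7, H2bc9, H2bc11 and H2bc14), H3c6, H4c11 and H2ax. The medians were -1.35 for H2A and -0.99 for H2B genes. The most clearly separated gene was H2ac11 at -1.52 ± 0.201 (adjusted p = 0.0014, limma), and the H2B gene with the lowest fold change was H2bc9 at -1.16 ± 0.253 (adjusted p = 0.022). H2ac8, which was detected on no supernatant array and passed the filter only through cardiomyocyte media, was at least 1.86-fold lower by the floor used above. In limma, without that floor, its log2 fold change was -1.235 (adjusted p = 0.0111).

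With chip as a block, where 3.97% of all genes were lower and 2.89% higher, all 18 calls were kept and H2az1 was added. With the replicate number as a block 12 calls were kept, those of the 10 H2A genes, H2bc9 and H2bc11, and those of H2bc4, H2bc7, H2bc14, H3c6, H4c11 and H2ax were lost. When the arrays were given equal medians, 10 of 12 H2A genes and 0 of 8 H2B genes were called (limma, 7 H2B genes lower at an unadjusted p under 0.05), with an H2B median of -0.99. On the arrays of chip 1 alone the H2A median was -1.56 and the H2B median -0.68, and on those of chip 2 alone, a comparison added after the data were seen, they were -1.24 and -1.22. Leaving out supernatant replicate 1 or replicate 2 reduced the count to 5 and 3, and leaving out cardiomyocyte media replicate 2 or 3 to 9 and 11. H2ac7, H2ac11 and H2ac24 were called in every fit that left out 1 array.

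Genes that serve histone supply were looked at beside the histones. Against unused media, 1.45% of all tested genes fell and 0.732% rose with supernatant, and 4.4% fell and 4.03% rose with cardiomyocyte media. Of 23 tested genes for the synthesis and processing of histone mRNA 0 changed with cardiomyocyte media (limma, with an unadjusted p under 0.05 for 1 higher and 1 lower gene) and 1 fell with supernatant against unused media. That was E2f2, a transcription factor of the G1 to S transition, with a mean signal of 27.5 with supernatant and 71.5 with unused media (-1.02 ± 0.211, adjusted p = 0.0314). Ccne2, the cyclin E2 that drives S phase entry, was lower with supernatant than with cardiomyocyte media (-1.45 ± 0.345, adjusted p = 0.0354). The list of histone chaperones and deposition factors also held the histone Cenpa and the genes Aprt and Ywhaz. Of its 28 tested genes 3 (10.7%) fell with supernatant against unused media. These were Chaf1b, a subunit of the CAF-1 complex that places new H3 and H4 behind the replication fork (-1.03 ± 0.198, adjusted p = 0.0224), Cenpa, the H3 variant of centromeres (-0.95 ± 0.179, adjusted p = 0.0213), and Mis18a, which prepares centromeres for it (-0.96 ± 0.196, adjusted p = 0.0312). With cardiomyocyte media 1 of the 28 (3.57%) was called lower and 0 higher, near the shares of all tested genes. It was Asf1a, a chaperone of H3 and H4 (-1.18 ± 0.256, adjusted p = 0.0169). With chip as a block 0 of the 28 were called in this comparison. Chaf1b had a log2 fold change of 0.21 with cardiomyocyte media (adjusted p = 0.497). Against cardiomyocyte media, supernatant gave lower values for 9 genes of this list, among them Asf1b (-1.69 ± 0.291, adjusted p = 0.00582, limma) and Chaf1a (-1.25 ± 0.196, adjusted p = 0.00333), and a higher value for Asf1a. That was 32.1% lower and 3.57% higher, where 3.13% of all tested genes were lower and 1.76% higher.

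DNA replication genes were lower with supernatant as well. Of 39 tested, 17 (43.6%) fell and 0 rose against unused media with a median of -0.81, where 1.45% of all tested genes fell. With supernatant an unadjusted p under 0.05 was seen for 32 lower and 0 higher genes, as for 6.38% and 5.49% of all genes. With cardiomyocyte media 3 (7.69%) rose and 1 (2.56%) fell with a median of 0.00295, against 4.03% and 4.4% of all genes. With chip as a block 0 of the 39 were called with cardiomyocyte media. Examples with supernatant were Mcm5, a subunit of the replicative helicase (-1.29 ± 0.179, adjusted p = 0.00603, limma), and Lig1, which joins the fragments of the lagging strand (-1.45 ± 0.178, adjusted p = 0.00425). The median over the 39 genes was -0.81 in both supernatant arrays, between 0.03 and 0.10 in the cardiomyocyte media arrays and between -0.02 and 0.04 in the unused media arrays. H2A genes and DNA replication genes were therefore low in the same 2 arrays. H2B genes, whose probes were dim, were not, with medians of 0.15 and -0.06 in these arrays. Whether the lower H2A signals followed from fewer replicating cells was not tested.

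**Figure D5:**
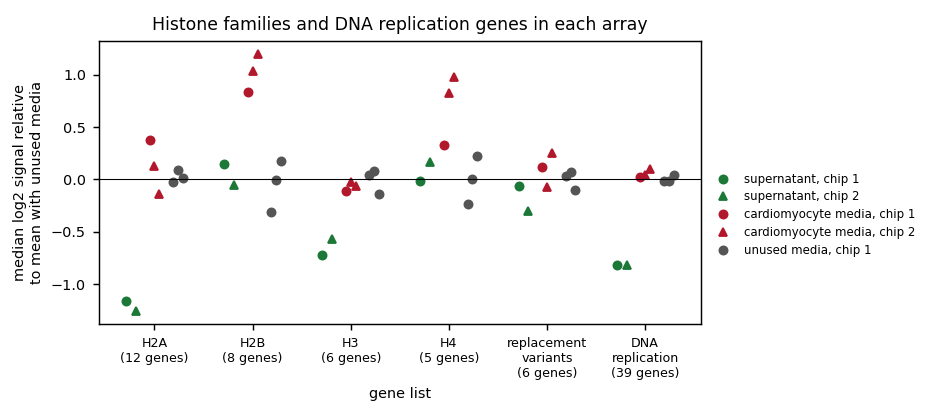
Median log2 difference from the unused media mean (y axis) over the tested genes of each list (x axis) in every array with supernatant (green), cardiomyocyte media (red) and unused media (grey); circles are arrays of chip 1 and triangles arrays of chip 2. H2A genes (-1.16 and -1.26) and DNA replication genes (-0.81) are low in both supernatant arrays, and H2B genes are high in the 3 cardiomyocyte media arrays (0.84, 1.03 and 1.20).

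The 20 members without a test were 18 replication-dependent genes and 2 replacement variants, the germ cell linker histones H1f7 and H1f8. The germ cell genes of the clusters, H1f6, H2ac1 and H2bc1, were among them. Among the 20, H1f3 was detected on 1 array of unused media, and H2bc3 and H4c12 were each detected on 1 array of cardiomyocyte media. For the others, detected on no array, only an upper bound, the background of the arrays, can be given. An RNA with no poly(A) tail would not be seen by the method.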

How the data were processed

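RNA of NIH 3T3 fibroblasts was measured on 8 Illumina MouseRef-8 arrays. The deposited intensity of each probe, before normalization, and its deposited detection p-value were written by the authors from BeadStudio, for which the submitters' processing notes give version 3.3. The authors' normalized intensity (background subtraction, cubic spline) was used as an alternative. In R 4.3.3 with limma 3.58.1, background was corrected with the normexp model, negative controls being inferred from the detection p-values, 16 units were added as an offset, and log2 values were made after quantile normalization. A gene name was given for 23978 of 25697 probes and lacking for 1719. The filter required a detection p under 0.05 on at least 2 arrays, and each gene was represented by its brightest probe. A linear model with 1 coefficient per group over all arrays and empirical Bayes moderation was fitted to 8885 genes. Promoter windows came from RefSeq (GRCm38.p6). Members and gene lists were chosen with earlier results of these data known. Named were members that passed a test, the 4 of each class with the smallest p in each comparison and the 3 brightest, and from other lists at most 6 that passed; the other histone genes with values (H1f2, H1f5, H2ac4, H2ac18, H2bc15, H2bc18, H3c13, H4c6 and Macroh2a1), the second probes, and Asf1a and Chaf1b where they did not pass were chosen after their values were seen. The code was tested on simulated data. The number of arrays limits the precision. Alternatives were other background, offset, scaling, filter, probe and variance settings, chip and replicate number as blocks, and leaving out each array.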

Additional observations from a re-analysis of the deposited data

How the results depend on the processing

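No called histone gene changed direction in any alternative. With arrays scaled to a common median, which moved the median of all genes to 0.21 for cardiomyocyte media and 0.26 for supernatant against unused media and 0.05 between the treatments, 2 histone genes were called for supernatant against unused media and 11 for supernatant against cardiomyocyte media; the medians of replication-dependent genes were 0.48 and -0.16, and those of replacement variants 0.36 and 0.19, for cardiomyocyte media and supernatant against unused media. Relative to all genes, replication-dependent medians under that scaling were 0.26 and -0.42. The replication-dependent median for supernatant against cardiomyocyte media was -0.49 without background correction, -0.62 with an offset of 50, -0.39 with no detection filter and -0.74 on chip 1 alone; for supernatant against unused media it was -0.085 with no filter and -0.58 over genes detected on all arrays. The cardiomyocyte media count was 6 over genes detected on all arrays and 5 with chip as a block. On chip 1 alone 0 histone genes passed limma for each treatment against unused media (7 higher and 1 lower with cardiomyocyte media, and 13 lower with supernatant, at an unadjusted p under 0.05), and 1 between treatments, with 1 array per treated group. Leaving out 1 array gave 4 to 12, 0 to 11 and 3 to 19 calls for cardiomyocyte media, supernatant and supernatant against cardiomyocyte media. Replication-dependent medians were then 0.16 to 0.27, -0.44 to -0.35 and -1.11 to -0.81, and replacement variant medians -0.03 to 0.22, -0.30 to -0.05 and -0.27 to -0.15; a lone supernatant array is assumed to vary like the other groups. Without the germ cell members nothing changed, since none was tested.

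Replicate numbers did not pair the treated with the unused media arrays: deviations of same-numbered arrays correlated at -0.18, -0.09 and -0.16 for cardiomyocyte media with unused media and -0.13 and -0.09 for supernatant with unused media, and at 0.71 and 0.49 between treatments, whose same-numbered arrays share a chip, so that number and chip cannot be told apart for these 2 pairs. With the replicate block 12, 9 and 12 histone genes were called for cardiomyocyte media, supernatant and supernatant against cardiomyocyte media. Dim probes limit the H2B, H4 and H1f5 values.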
